A study of Mus musculus with 18 samples.

Results

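The transcripts described here were those of 10 integrin subunits, taken from the gene table by their symbols. They were the α subunits Itga2, Itga3, Itga5, Itga6 and Itgav and the β subunits Itgb1, Itgb3, Itgb4, Itgb5 and Itgb6. All 10 were among the 24421 rows of the table and among the 13507 genes with enough counts to be tested. RNA was sequenced from 4T1 cells, a mouse mammary carcinoma line, and from 4T1R1 and 4T1R2. The latter are populations obtained from 4T1 by repeated exposure, given as 3 rounds, to the HSP90 inhibitor 17-DMAG. The selecting exposure was described as 1.5 µM for 48 h in one place and with another dose and length in another, so it is uncertain. Cells of each population were either left untreated or exposed to 17-DMAG before RNA extraction, in 3 libraries per group, and the libraries of a group were described as biological replicas. The sample records gave the exposure as 1.5 µM for 48 h, whereas the series description gave 2 h, so the length of exposure behind the treated groups is uncertain. All 6 groups carried the strain label BALB/cfC3H and the genotype label wild type, and 4T1R1 and 4T1R2 were selected populations rather than named clones.

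Integrins are cell surface receptors made of one α and one β subunit, and each pairing has its own range of matrix ligands. The β1 subunit pairs with many α subunits, giving receptors for laminin with α3 or α6, for collagen with α2 and for fibronectin with α5. The β4 subunit pairs with α6 in hemidesmosomes, which anchor epithelial cells to laminin, and αv pairs with β3, β5 or β6 to bind ligands that carry the RGD motif, such as vitronectin, and latent TGF-β in the case of β6.

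Total counts per library ran from 23354461 to 55094630, and the lowest raw count of a member in any library was 42. Among 4T1 cells given 17-DMAG, libraries 1 and 2 differed by a chi-square per gene of 1.10, against 2.04 to 2.22 in the 17 other pairs within a group. What sampling noise alone gives is not known here, since mates of a fragment may have been counted separately, which raises it. Libraries 1 and 2 entered as a single averaged sample, so n was 2 in that group and 3 in the others. Summed epithelial markers (Epcam, Cdh1, Krt8, Krt18 and Krt19) came to 61926 to 62684 normalized counts in untreated 4T1, 42813 to 44730 in untreated 4T1R1 and 48520 to 49354 in untreated 4T1R2. In treated cells of the same populations they came to 59381 to 59690, 42566 to 43921 and 49279 to 50297. The epithelial sum was far above those of the other marker lists in every group and lower in both resistant populations than in 4T1. A sum does not show the level of each marker. Singly, 4 of the 5 were lower and 1 not called in untreated 4T1R1 against 4T1, where 27.5% of all genes tested were lower. In untreated 4T1R2, 3 were lower, 1 higher and 1 not called, where 26.9% of all genes were lower and 25.6% higher. Over all groups, the 4 endothelial markers summed to between 4.32 and 17.6 normalized counts and the 4 platelet markers to between 40.6 and 88.7. The 5 leukocyte markers summed to between 135 and 223, and the 5 fibroblast markers to between 375 and 1027 with Lum at 0. In untreated cells the fibroblast sum was 667 to 745 in 4T1, 817 to 871 in 4T1R1 and 903 to 1027 in 4T1R2, and in treated cells 375 to 396, 692 to 745 and 780 to 887. Pdgfra, the only fibroblast marker with enough counts to be tested, was lower with 17-DMAG in all 3 populations (log2FC -0.89, -0.25 and -0.21) and higher in both untreated resistant populations than in 4T1 (0.24 and 0.45). The part of these shifts in the results was not tested. In bulk RNA, fewer cells of a type and less RNA per cell cannot be told apart, and protein at the cell surface was not measured.

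The DNA before the start of the genes is shown for the main β subunit, Itgb1, for Itgb5, and for Itga2, since these 3 genes differed in opposite directions between the populations. RefSeq start sites on GRCm38.p6 were found for 7 of the 10 members and gave 9 windows of 250 bases each. Motif matches on either strand are in capitals and positions count back from the start site. The motifs searched were the heat shock element GAANNTTC, the AP-1 site TGANTCA, the SP1 site GGGCGG, the TEAD site GGAATG and the kappaB site. The Itgb5 window (chr16:33829415-33829664, + strand) held a heat shock element at -155 and SP1 sites at -199, -63 and -34, and the Itgb1 window (chr8:128685404-128685653, + strand) held an SP1 site at -151 and a TEAD site at -7. The Itga2 window (chr13:114932101-114932350, - strand) held no match.
Itgb5: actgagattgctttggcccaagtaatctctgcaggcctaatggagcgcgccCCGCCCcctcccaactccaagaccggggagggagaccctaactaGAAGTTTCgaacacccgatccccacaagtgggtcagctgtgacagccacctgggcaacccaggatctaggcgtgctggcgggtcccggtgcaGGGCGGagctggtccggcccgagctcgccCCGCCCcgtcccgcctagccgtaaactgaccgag
Itgb1: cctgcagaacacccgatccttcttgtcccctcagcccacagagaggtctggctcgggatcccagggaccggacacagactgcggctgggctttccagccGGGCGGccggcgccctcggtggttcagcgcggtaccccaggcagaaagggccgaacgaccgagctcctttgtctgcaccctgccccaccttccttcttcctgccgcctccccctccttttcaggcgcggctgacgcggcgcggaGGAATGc
Itga2: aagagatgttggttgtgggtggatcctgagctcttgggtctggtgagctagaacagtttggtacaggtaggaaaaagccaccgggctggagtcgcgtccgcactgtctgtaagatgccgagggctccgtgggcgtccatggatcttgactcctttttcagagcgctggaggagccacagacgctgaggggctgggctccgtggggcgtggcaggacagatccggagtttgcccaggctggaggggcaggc
Of the 9 windows, 5 held an SP1 site, 1 a heat shock element, 1 a TEAD site and 0 an AP-1 or kappaB site. Among 32851 such windows in the genome the shares with a match were 32.7% for SP1, 6.69% for the heat shock element, 12.6% for TEAD, 6.75% for AP-1 and 7.25% for kappaB. These matches describe letters in the sequence and are not evidence of binding.

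Levels were compared between genes as normalized counts per kilobase, over the length of all annotated exons of a gene joined, where a normalized count is a count scaled to a common library size by the TMM method. In untreated 4T1 the order ran from Itgb1 with 10822 ± 279 (SD, n = 3) and Itga3 with 6891 ± 130.1 through Itga6 with 1617 ± 9.06, Itgav with 911 ± 27.6, Itgb5 with 700.1 ± 22.5 and Itgb4 with 631 ± 12.1 to Itga5 with 394 ± 18.1 and Itga2 with 274 ± 2.59. Itgb3 and Itgb6 were lowest, with 47.3 ± 5.54 and 7.45 ± 1.41 per kilobase. Neighbours in this order were separated by more than their SDs. In untreated 4T1R1 and 4T1R2, Itgb5 stood above Itgav, with 1049 ± 45.7 against 829 ± 28.1 and 1108 ± 43.2 against 676 ± 8.97 per kilobase, and Itgb4 was below Itga5 and Itga2. With 17-DMAG, Itgb4 stood only slightly above Itgb5 in 4T1 (519 ± 9.59 and 504 ± 5.44, n = 2), without overlap. Itgav and Itgb5 overlapped in treated 4T1R1 (851 ± 15.3 and 801 ± 39.7). The order of near neighbours depended on the length used. With the length of the longest annotated transcript, a choice added after the data were seen, Itgav stood above Itgb5 in untreated 4T1R1 (1262 ± 42.8 against 1136 ± 49.4) and treated 4T1R1 (1297 ± 23.4 against 867 ± 43.0). By this length, Itgb4 stood farther above Itgb5 in treated 4T1 (587 ± 10.8 against 546 ± 5.89). Itga3 and Itgb1 (6926 ± 284 and 6735 ± 157.6), like Itga2 and Itgb4 (416 ± 13.0 and 401 ± 22.8), did not differ beyond their spread in untreated 4T1R1. Itgb5 remained above Itgav in untreated 4T1R2 (1199 ± 46.8 against 1029.9 ± 13.7). By the joined exons, Itgb1 and Itga3, which can pair in a laminin receptor, together made up 79.5% of the summed level of the 10 members in untreated 4T1. This share was 73.3% in untreated 4T1R1 and 73.5% in untreated 4T1R2, and it was not worked out by the longest transcript. The summed level was 22293 ± 136 per kilobase in untreated 4T1, 16635 ± 144 in untreated 4T1R1 and 16732 ± 176 in untreated 4T1R2.

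**Figure D1:**
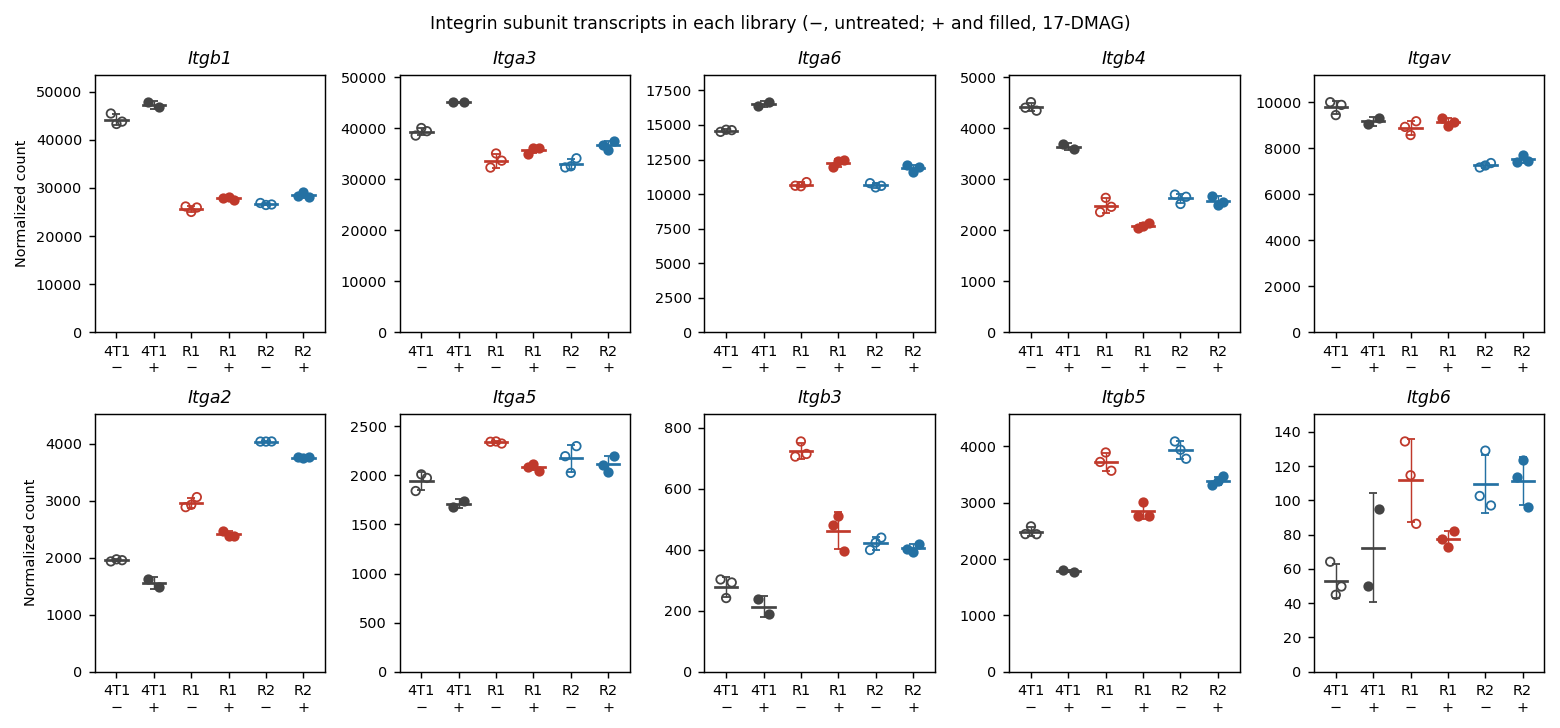
Normalized counts of the 10 members (vertical axes, linear, one panel per gene) in each library of the 6 groups along the horizontal axes, with R1 and R2 short for 4T1R1 and 4T1R2, open points untreated, filled points 17-DMAG-treated (the averaged pair drawn as 1 point) and bars giving mean ± SD. Itgb1 in both resistant populations lies between 25012 and 29181, below all 4T1 libraries, and Itga2 rises in steps from untreated 4T1 (1935 to 1972) through 4T1R1 (2887 to 3064) to 4T1R2 (4038 to 4039.7).

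The first question was how the untreated resistant populations differed from untreated 4T1. In both, transcripts of Itgb1 and its laminin-binding partners Itga3 and Itga6 were lower, as were Itgb4 and Itgav, whereas Itga2, Itga5, Itgb3, Itgb5 and Itgb6 were higher. All 10 members passed the test in each comparison, 5 in each direction, by edgeR's quasi-likelihood test with Benjamini-Hochberg adjustment at 0.05 over all genes tested. Many genes passed: 25.2% of all genes tested were higher and 27.5% lower in 4T1R1, and 25.6% were higher and 26.9% lower in 4T1R2. Fold changes of the members were large beside those of all genes, with a median absolute log2 fold change (log2FC) of 0.59 against 0.23 in 4T1R1 and 0.63 against 0.23 in 4T1R2. The members were chosen with earlier results of these data known, so this contrast is not independent of the choice. For all 10 members the libraries of untreated 4T1 did not overlap with those of either resistant population. How often this held among all genes tested was not worked out, so the count does not set the members apart from other genes. Both comparisons share the untreated 4T1 libraries. Library identifiers of 4T1R1 came from a separate number run from those of 4T1 and 4T1R2, so 4T1R1 and that run cannot be told apart, while the comparison of 4T1R2 with 4T1 lay within one run.

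**Figure D2:**
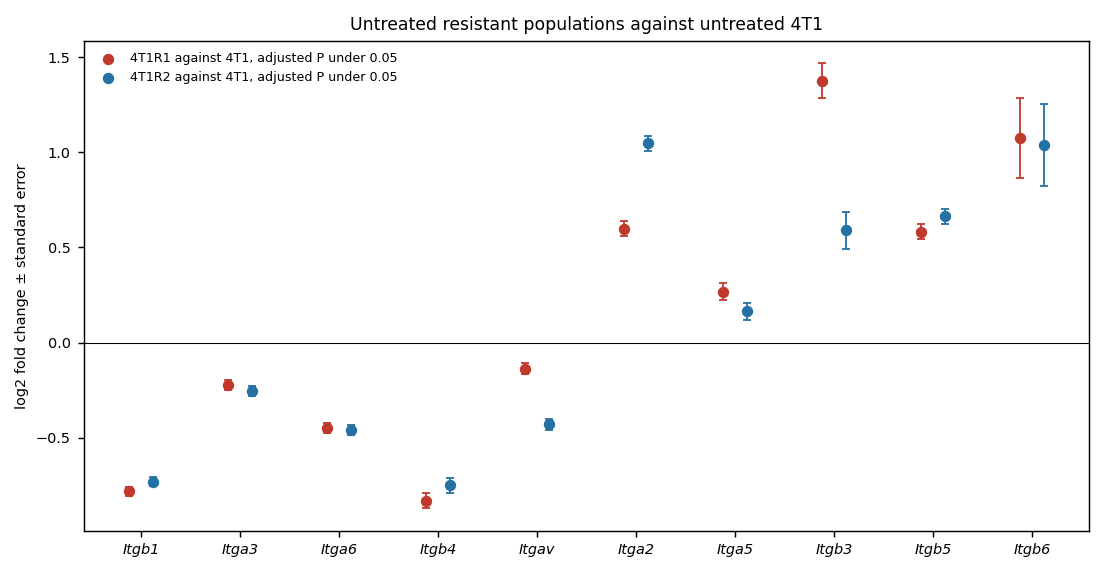
The log2FC of each member (vertical axis, ± standard error) in untreated 4T1R1 (red) and untreated 4T1R2 (blue) against untreated 4T1, with filled points passing an adjusted P-value of 0.05. Itgb1, Itga3, Itga6, Itgb4 and Itgav lie below 0 in both populations and the other 5 members above 0, with Itga2 (0.60 and 1.05) and Itgb3 (1.38 and 0.59) farthest apart between the populations.

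Itgb1 (GRCm38 chromosome 8, 128685654 to 128733200, + strand), the common partner of the α subunits, gave 45449, 43276 and 43765 normalized counts in untreated 4T1, 26143, 25012 and 25931 in 4T1R1 and 26865, 26452 and 26555 in 4T1R2. The resistant populations stood at about the same level, far below 4T1. The log2FC was -0.78 (SE 0.0245, adjusted P-value 2.57e-27; this and all later adjusted P-values are from the edgeR fit over all genes unless DESeq2 is named) in 4T1R1 and -0.73 (SE 0.0245, adjusted P-value 2.93e-26) in 4T1R2. Itgb4 (chromosome 11, 115974709 to 116008412, + strand), the hemidesmosomal subunit, gave 4406, 4515 and 4348 in untreated 4T1, 2358, 2639 and 2463 in 4T1R1 and 2702, 2518 and 2659.6 in 4T1R2. It was lower to a similar extent, by a log2FC of -0.83 (SE 0.0403, adjusted P-value 7.41e-21) and -0.75 (SE 0.0405, adjusted P-value 2.72e-19). A noncoding gene, B230344G16Rik, overlaps Itgb4 on the other strand, and whether strand was used in counting is not given in the sources used here.

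The laminin receptor α subunits were lower by less. Itga3 (chromosome 11, 95044474 to 95076801, - strand) gave 38568, 40048 and 39429 normalized counts in untreated 4T1, 32294, 35059 and 33651 in 4T1R1 and 32323, 32549 and 34121 in 4T1R2, with a log2FC of -0.22 (SE 0.0267, adjusted P-value 2.18e-09) and -0.25 (SE 0.0267, adjusted P-value 1.06e-10). Itga6 (chromosome 2, 71745616 to 71858416, + strand) gave 14499.6, 14653 and 14624 in untreated 4T1, 10603, 10567 and 10867 in 4T1R1 and 10789, 10483 and 10596 in 4T1R2, with a log2FC of -0.45 (SE 0.0266, adjusted P-value 4.97e-18) and -0.46 (SE 0.0267, adjusted P-value 3.15e-18). Itga6 is overlapped by noncoding genes on both strands. Within each library, Itgb4 was lower relative to its partner Itga6 in the resistant populations, with a mean log2 ratio of normalized counts of -1.72 in untreated 4T1, -2.10 in 4T1R1 and -2.02 in 4T1R2.

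Itga2 (chromosome 13, 114833081 to 114932100, - strand), the α subunit of a collagen receptor, was higher in both resistant populations and higher still in 4T1R2. It gave 1935, 1972 and 1956 normalized counts in untreated 4T1, 2887, 2928 and 3064 in 4T1R1 and 4038, 4038 and 4039.7 in 4T1R2. The 3 populations formed separate steps without overlap. The log2FC against 4T1 was 0.60 (SE 0.0391, adjusted P-value 1.22e-16) in 4T1R1 and 1.05 (SE 0.0388, adjusted P-value 9.66e-25) in 4T1R2. Itga5 (chromosome 15, 103344286 to 103366763, - strand), the fibronectin receptor α subunit, differed less, with means of 1942 ± 89.3, 2338 ± 11.5 and 2173 ± 138 normalized counts (SD, n = 3) and a log2FC of 0.27 (SE 0.0451, adjusted P-value 3.14e-06) in 4T1R1 and 0.16 (SE 0.0458, adjusted P-value 0.00257) in 4T1R2.

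Among the αv receptors, the α subunit was lower while its β partners were higher. Itgav (chromosome 2, 83724397 to 83806916, + strand) gave 10013, 9450.1 and 9894 normalized counts in untreated 4T1, 8938, 8583 and 9183 in 4T1R1 and 7172, 7258 and 7365 in 4T1R2, with a log2FC of -0.14 (SE 0.0301, adjusted P-value 0.000184) and -0.43 (SE 0.0305, adjusted P-value 1.62e-15). It is overlapped by the noncoding Gm13684 and Dnmt3l-ps1 on the other strand. Itgb5 (chromosome 16, 33829665 to 33949338, + strand), a vitronectin receptor β subunit, gave 2442, 2579.7 and 2440.2 in untreated 4T1, 3723, 3891 and 3567 in 4T1R1 and 4087, 3940.0 and 3780.0 in 4T1R2. Every resistant library lay above every 4T1 library, and the log2FC was 0.58 (SE 0.0409, adjusted P-value 1.10e-15) and 0.66 (SE 0.0411, adjusted P-value 2.24e-17).

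Itgb3 (chromosome 11, 104608000 to 104670476, + strand), the β3 subunit that is abundant on platelets and on endothelium in growing vessels, was a minor transcript here that differed most, of the members, between the resistant populations. It gave 302, 242 and 293 normalized counts in untreated 4T1, 705, 755 and 714 in 4T1R1 and 399, 424 and 439.8 in 4T1R2. The log2FC against 4T1 was 1.38 (SE 0.0932, adjusted P-value 3.94e-16) in 4T1R1 and 0.59 (SE 0.0992, adjusted P-value 3.02e-06) in 4T1R2. Itgb6 (chromosome 2, 60598292 to 60722643, - strand), an epithelial subunit whose receptor activates latent TGF-β, was the least abundant member, with 64.2, 44.9 and 49.7 normalized counts in untreated 4T1, 134, 115 and 86.4 in 4T1R1 and 103, 129 and 97.1 in 4T1R2. Its log2FC of 1.07 (SE 0.211, adjusted P-value 3.78e-05) and 1.04 (SE 0.215, adjusted P-value 7.88e-05) had the widest errors of the members.

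These opposite shifts changed the balance among the 5 β members, a sum that leaves out other β subunits such as Itgb7 (376 ± 5.10 per kilobase in untreated 4T1, 828 ± 23.1 in 4T1R1 and 731 ± 19.6 in 4T1R2). Of the summed level per kilobase of these 5, Itgb1 held 88.6% ± 0.401 (SD, n = 3) in untreated 4T1, 80.3% ± 1.03 in untreated 4T1R1 and 80.6% ± 0.338 in untreated 4T1R2. Itgb5 went the other way, with 5.74% ± 0.277, 13.4% ± 0.686 and 13.7% ± 0.407. Within each library, which no scaling between libraries can alter, the mean log2 ratio of Itgb5 to Itgb1 normalized counts was -4.15 ± 0.0758 in untreated 4T1, -2.79 ± 0.0916 in 4T1R1 and -2.76 ± 0.0490 in 4T1R2, with no overlap between 4T1 and either resistant population. With 3 libraries against 3, an exact permutation test of such a ratio cannot give a two-sided P-value under 0.1. Among the 5 α members the share of Itga3 was much the same, from 66.9% to 68.3% in untreated cells, while Itga2 held 2.72% ± 0.0115 in 4T1, 4.72% ± 0.146 in 4T1R1 and 6.56% ± 0.147 in 4T1R2. By the longest transcript the Itgb1 shares were 88.3%, 80.0% and 80.2%, and those of Itga3 59.6%, 59.6% and 59.8%.

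**Figure D3:**
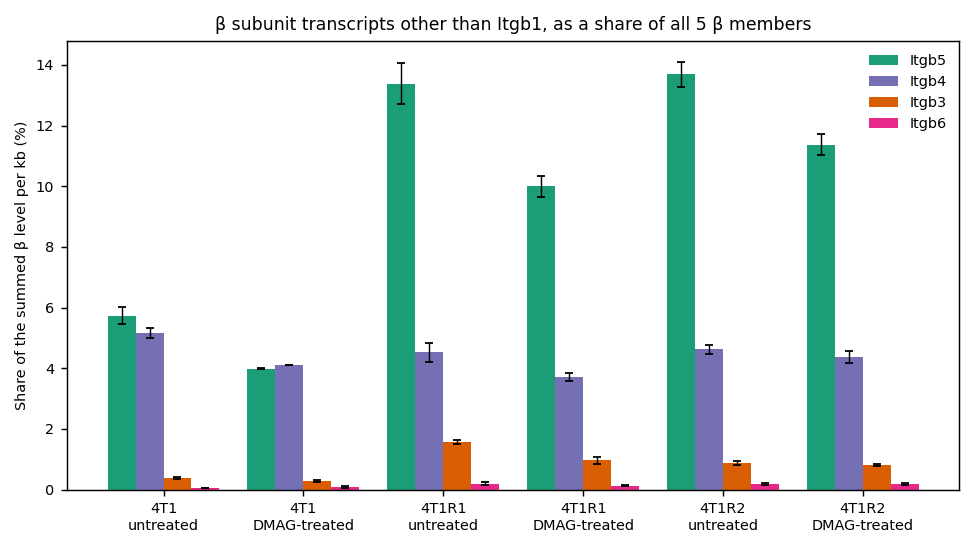
Share of Itgb5, Itgb4, Itgb3 and Itgb6 in the summed level per kilobase of the 5 β members (vertical axis, percent, from 0) in the 6 groups along the horizontal axis, with bars giving group means and error bars the SD, and Itgb1, which holds the rest of this sum, and β subunits outside the members not drawn. The Itgb5 bars of untreated 4T1R1 (13.4%) and 4T1R2 (13.7%) stand far above that of untreated 4T1 (5.74%), while the Itgb4 bars differ little (4.52%, 4.63% and 5.17%).

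The resistant populations were then compared with each other, untreated. Itga2 was higher in 4T1R2 than in 4T1R1, with a log2FC of 0.45 (SE 0.0374, adjusted P-value 6.86e-13), and Itgav and Itgb3 were lower, with a log2FC of -0.29 (SE 0.0306, adjusted P-value 2.38e-10) and -0.79 (SE 0.0898, adjusted P-value 2.21e-09). Across all genes tested 19.7% were higher and 19.0% lower, and the other 7 members were not called. Their log2FC ran from -0.10 for Itga5 (adjusted P-value 0.0655) to 0.08 for Itgb4 (adjusted P-value 0.124), a smaller spread than the differences of the same genes from 4T1. Without untreated 4T1R1 replicate 2, Itgb4 (log2FC 0.13, adjusted P-value 0.0190) and Itgb5 (0.11, adjusted P-value 0.0329) also passed, and without untreated 4T1R2 replicate 3 Itga5 did (-0.15, adjusted P-value 0.0193). The separate number run of 4T1R1 cannot be told apart from these differences.

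The second question was the effect of 17-DMAG within each population. In 4T1 and 4T1R1, transcripts of Itgb5, Itga2, Itgb4, Itgb3 and Itga5 fell with 17-DMAG, and those of Itga3 and Itga6 rose slightly. Itgb1 rose by a small amount with TMM scaling, but its direction in 4T1 turned with scaling by total counts. In 4T1R2 fewer members moved: Itga3, Itga6 and Itgb1 rose and Itgb5 fell. In 4T1, 3 members were higher and 6 lower, against 18.4% and 18.0% of all genes tested. The counts were again 3 and 6 in 4T1R1, against 13.9% and 14.3% of all genes, and 3 and 1 in 4T1R2, against 6.17% and 4.35%. In the order 4T1, 4T1R1 and 4T1R2, the members had a median absolute log2FC of 0.24, 0.22 and 0.08, and all genes one of 0.18, 0.13 and 0.09.

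**Figure D4:**
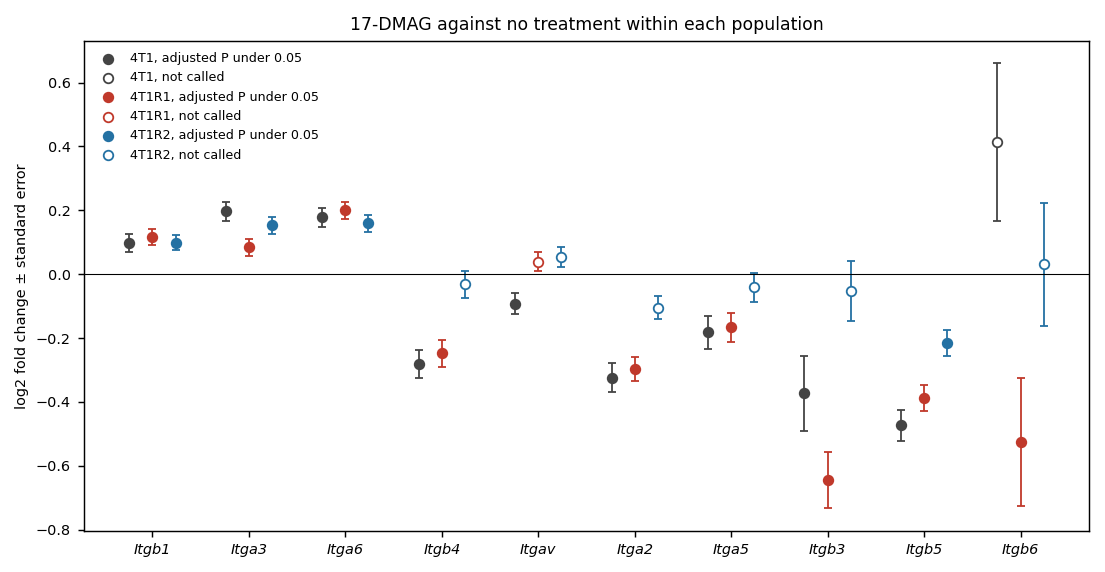
The log2FC of each member with 17-DMAG against no treatment (vertical axis, ± standard error) in 4T1, 4T1R1 and 4T1R2, with filled points passing an adjusted P-value of 0.05 and open points not. Itgb5 lies below 0 in all 3 populations (-0.47, -0.39 and -0.22), Itga3 and Itga6 lie above 0 in all 3, and the small value of Itgb1 in 4T1 (0.10) becomes -0.02 when libraries are scaled by total counts.

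Itgb5 was the member that fell in all 3 populations. It went from 2442, 2579.7 and 2440.2 normalized counts in untreated 4T1 to 1804 and 1777 after 17-DMAG, from 3723, 3891 and 3567 to 2765, 3009 and 2764 in 4T1R1, and from 4087, 3940.0 and 3780.0 to 3322, 3380.1 and 3469 in 4T1R2. Treated and untreated libraries did not overlap in any population, and the treated libraries of both resistant populations remained above those of untreated 4T1. The log2FC was -0.47 (SE 0.0482, adjusted P-value 1.05e-10) in 4T1, -0.39 (SE 0.0405, adjusted P-value 7.18e-10) in 4T1R1 and -0.22 (SE 0.0399, adjusted P-value 0.000174) in 4T1R2. Its share of the level of the 5 β members was 3.98% ± 0.0217 in treated 4T1 (n = 2) and 11.4% ± 0.351 in treated 4T1R2 (n = 3).

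Itga2, the collagen receptor subunit, went to 1635 and 1479 normalized counts in treated 4T1 and to 2474, 2382 and 2374 in treated 4T1R1. These lay below all untreated libraries of the same population, with a log2FC of -0.32 (SE 0.0459, adjusted P-value 2.22e-07) and -0.30 (SE 0.0385, adjusted P-value 1.06e-07). In 4T1R2 it went to 3761, 3743 and 3762, a log2FC of -0.10 (SE 0.0368) whose adjusted P-value was 0.0605, although treated and untreated libraries did not overlap, and with DESeq2 it passed (log2FC -0.11, adjusted P-value 0.0428). Itgb4, the hemidesmosomal subunit, went to 3689 and 3594 in treated 4T1 (log2FC -0.28, SE 0.0440, adjusted P-value 1.67e-06) and to 2041, 2089 and 2152 in treated 4T1R1 (-0.25, SE 0.0422, adjusted P-value 1.57e-05), and was 2677, 2493 and 2548 in treated 4T1R2, which overlapped with the untreated 2702, 2518 and 2659.6 (-0.03, adjusted P-value 0.711).

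Itgb3 fell in 4T1R1 from 705, 755 and 714 to 481, 511 and 395 normalized counts, a log2FC of -0.65 (SE 0.0879, adjusted P-value 2.73e-07). In 4T1 it went to 238 and 189, a log2FC of -0.37 (SE 0.118, adjusted P-value 0.0108). That call was lost without untreated 4T1 replicate 1 (-0.31, adjusted P-value 0.0567) or treated 4T1 replicate 3 (-0.23, adjusted P-value 0.246). Itgb3 was 404, 394 and 418 in treated 4T1R2 against 399, 424 and 439.8 untreated, which overlap. The fibronectin receptor subunit Itga5 fell in 4T1 by 0.18 on the log2 scale (adjusted P-value 0.00437, and a log2FC of -0.30 under total counts) and by 0.17 in 4T1R1 (adjusted P-value 0.00421), and its log2FC was -0.04 in 4T1R2 (adjusted P-value 0.640).

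The abundant laminin receptor subunits moved by small amounts in the other direction. Itga6 went from 14499.6, 14653 and 14624 normalized counts to 16385 and 16647 in 4T1, from 10603, 10567 and 10867 to 11949, 12392 and 12464 in 4T1R1, and from 10789, 10483 and 10596 to 12076, 11598 and 11936 in 4T1R2. All treated libraries lay above the untreated ones, with a log2FC of 0.18, 0.20 and 0.16 (adjusted P-values 3.54e-06, 1.82e-07 and 4.08e-05), and in 4T1 the call was lost with scaling by total counts (0.06, adjusted P-value 0.109). Itga3 rose by 0.20 in 4T1 (adjusted P-value 7.63e-07, and 0.08 with adjusted P-value 0.0271 under total counts) and 0.15 in 4T1R2 (adjusted P-value 8.37e-05). In 4T1R1 its log2FC was 0.08 (adjusted P-value 0.0148) with overlapping libraries, and the call was lost without untreated replicate 1 (0.06, adjusted P-value 0.154) or treated replicate 2 (0.08, adjusted P-value 0.0580) or 3 (0.08, adjusted P-value 0.0641).

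Itgb1 had a log2FC of 0.10 in 4T1 (SE 0.0270, adjusted P-value 0.00356), 0.12 in 4T1R1 (SE 0.0245, adjusted P-value 0.000333) and 0.10 in 4T1R2 (SE 0.0245, adjusted P-value 0.00535), but with scaling by total counts the value in 4T1 turned to -0.02 (adjusted P-value 0.704). That scaling moved the median log2FC of all genes in 4T1 to -0.11, so Itgb1 was above the median of all genes under both. In 4T1R2 the call for Itgb1 was lost without treated replicate 2 (0.08, adjusted P-value 0.0557) and under total counts (0.05, adjusted P-value 0.245).

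Itgav, the shared partner of β3, β5 and β6, had a log2FC of -0.09 in 4T1 (SE 0.0336, adjusted P-value 0.0283), 0.04 in 4T1R1 (adjusted P-value 0.373) and 0.05 in 4T1R2 (adjusted P-value 0.299). The call in 4T1 was lost without untreated replicate 1 (-0.08, adjusted P-value 0.109) or 3 (-0.08, adjusted P-value 0.0866), and the value was -0.21 (adjusted P-value 3.05e-05) under total counts. Itgb6 was 49.8 and 95.1 normalized counts in treated 4T1, of which the lower lies within the untreated range, and its log2FC of 0.41 (adjusted P-value 0.200) became -0.09 without treated replicate 3. In 4T1R1 it fell from 134, 115 and 86.4 to 77.7, 73.0 and 81.9, a log2FC of -0.53 (SE 0.200, adjusted P-value 0.0445). That call was lost without untreated 4T1R1 replicate 1 (-0.37, adjusted P-value 0.242) or 2 (-0.51, adjusted P-value 0.0983), without treated replicate 1 (-0.53, adjusted P-value 0.0996), 2 (-0.49, adjusted P-value 0.119) or 3 (-0.57, adjusted P-value 0.0697), and with DESeq2 (adjusted P-value 0.0709).

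Whether the response to 17-DMAG differed between populations was tested as the response in a resistant population minus that in 4T1. Itgb5, Itgb4 and Itga2 fell less in 4T1R2 than in 4T1, and Itgav, which fell slightly in 4T1, did not do so in 4T1R2. The differences in log2FC were 0.26 for Itgb5 (SE 0.0625, adjusted P-value 0.00239), 0.25 for Itgb4 (SE 0.0603, adjusted P-value 0.00240), 0.22 for Itga2 (SE 0.0588, adjusted P-value 0.00614) and 0.15 for Itgav (SE 0.0455, adjusted P-value 0.0200). Thus 4 members had a higher response, against 9.66% of all genes tested, and 0 a lower one, against 8.10%. All genes tested also responded less in 4T1R2, with a median absolute log2FC of 0.09 against 0.18 in 4T1. Whether the members differ from that was not tested. By edgeR's unadjusted P-value under 0.05 the lower count was also 0, and so it was with DESeq2. The call for Itga2 was lost without treated 4T1 replicate 3 (0.16, adjusted P-value 0.120), and that for Itgav without untreated 4T1 replicate 1 (0.13, adjusted P-value 0.0541) or 3 (0.14, adjusted P-value 0.0511) or treated 4T1R2 replicate 2 (0.13, adjusted P-value 0.0644).

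In 4T1R1 the response of Itgav was higher than in 4T1, by 0.13 (SE 0.0452, adjusted P-value 0.0364), and that of Itga3 and Itgb6 lower, by -0.11 (SE 0.0399, adjusted P-value 0.0441) and -0.94 (SE 0.318, adjusted P-value 0.0323). These counts of 1 higher and 2 lower stood beside 9.21% and 9.05% of all genes tested. Each of the 3 calls was lost when some single libraries were left out. Leaving out untreated 4T1 replicate 1, 4T1R1 untreated replicate 2 or treated 4T1R1 replicate 1 ended the call for Itga3 (-0.10, -0.08 and -0.10) and for Itgav (0.11, 0.11 and 0.12), as did untreated 4T1 replicate 3 (-0.11 and 0.12), treated 4T1 replicate 3 (-0.11 and 0.15) and treated 4T1R1 replicate 3 (-0.12 and 0.13), and untreated 4T1R1 replicate 3 ended that for Itga3 alone (-0.11). For Itgb6 the call was lost without untreated 4T1 replicate 2 (-0.84) or 3 (-0.90), treated 4T1 replicate 3 (-0.44), untreated 4T1R1 replicate 1 (-0.78) and treated 4T1R1 replicate 1 (-0.94) or 2 (-0.90). For the larger falls the difference between 4T1R1 and 4T1 was 0.08 for Itgb5, with a 95% interval from -0.04 to 0.21, and 0.03 for Itga2, from -0.09 to 0.15. With scaling by total counts, which moved the median of all genes to 0.15, both passed, at 0.23 for Itgb5 (adjusted P-value 0.00401) and 0.18 for Itga2 (adjusted P-value 0.0327), the value of Itgav rose to 0.28 (adjusted P-value 6.22e-05), and that of Itga3 turned to 0.04 (adjusted P-value 0.545).

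Within each library, the balance between subunits also shifted with 17-DMAG. Of the pairs compared here, only Itgb4 and Itga6 are partners in a receptor. The mean log2 ratio of Itgb5 to Itgb1 went from -4.15 to -4.72 in 4T1, from -2.79 to -3.29 in 4T1R1 and from -2.76 to -3.07 in 4T1R2, with no overlap between treated and untreated libraries of a population. That of Itga2 to Itga3 went from -4.33 to -4.86, from -3.51 to -3.89 and from -3.03 to -3.29. The ratio of Itgb4 to its partner Itga6 went from -1.72 to -2.18 in 4T1, from -2.10 to -2.55 in 4T1R1 and from -2.02 to -2.21 in 4T1R2. All of these ratios fell with treatment in the means of every population.

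Over the 6 group means the members with the widest range were Itgb3 (1.77 on the log2 scale), Itga2 (1.38) and Itgb5 (1.14), and the narrowest was Itgav (0.43). Likeness was measured on the log2 of normalized counts with 1 added. Among 10638 genes, those most like Itgb3 over the 17 samples were Tapbp (Pearson r 0.960), Ikbke (0.954) and Zfyve1 (0.950). The closest to Itga2 were Anp32a (0.986), Med24 (0.986) and Rab15 (0.985), and to Itgb5 Plscr1 (0.990), Cpt1a (0.989) and Irf2bpl (0.988). Among members, the Pearson r was 0.952 for Itga3 with Itga6, 0.951 for Itga6 with Itgb1, 0.919 for Itga2 with Itgb5 and -0.966 for Itga6 with Itgb5. These values describe 17 samples that share 6 groups and the same libraries.

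Of 16 other integrin subunits, 10 could be tested, and 6 had more than 100 normalized counts in at least 1 group. In 4T1R1 5 of these 10 were higher than in 4T1 and 5 were not called, with a median log2FC of 0.61, and in 4T1R2 4 were higher and 6 not called, with a median of 0.43, where the medians of all genes tested were 0.01 and 0.01 and the shares of all genes higher were 25.2% and 25.6%. Itgb7, best known as a leukocyte subunit, was 1040.4 ± 14.1 normalized counts in untreated 4T1, 2293 ± 64.0 in 4T1R1 (log2FC 1.14) and 2024 ± 54.2 in 4T1R2 (0.96). Itga8, an RGD-binding partner of β1, was 61.9 ± 11.0, 127 ± 19.3 (log2FC 1.04) and 249.6 ± 31.5 (2.01). With 17-DMAG, Itga1, a collagen-binding partner of β1, fell in all 3 populations, by 0.60, 0.30 and 0.24 on the log2 scale, and Itgb7 rose in 4T1 (0.48). Itga4 was at 0 in every library, which allows up to 3 counts in each.

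The ligands were described by families. Of 8 laminin chains tested, 5 were higher and 2 lower in 4T1R1 (median log2FC 0.33) and 4 higher and 3 lower in 4T1R2 (median 0.11), where 25.2% and 25.6% of all genes tested were higher and 27.5% and 26.9% lower. Lamb3 and Lama3, chains of the epithelial laminin bound by α3β1 and α6β4, were higher in both populations, with a log2FC of 1.00 and 0.69 in 4T1R1 and 1.14 and 1.42 in 4T1R2. With 17-DMAG, Lamb2 fell in 4T1, 4T1R1 and 4T1R2, by 0.48, 0.27 and 0.33 on the log2 scale.

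Of 13 RGD and related ligands tested, 9 were lower and 3 higher in each resistant population, with a median log2FC of -0.31 in 4T1R1 and -0.45 in 4T1R2, against 27.5% and 26.9% of all genes tested lower and 25.2% and 25.6% higher. Spp1 (osteopontin) was lower in 4T1R1 and 4T1R2 (log2FC -1.37 and -0.86), as was Ctgf, a matricellular protein (-1.37 and -1.06), and Npnt (nephronectin), a ligand of α8β1, was lower in 4T1R2 (-1.16). Tgfb3, whose latent form carries an RGD motif, went the other way in untreated cells, with means of 943 normalized counts in 4T1, 1287 in 4T1R1 and 1833 in 4T1R2. With 17-DMAG, Tgfb3 fell in 4T1 and 4T1R1 by 0.87 and 0.36 on the log2 scale, and Cyr61 rose in 4T1 (0.70) and fell in 4T1R2 (-0.22). Of 7 collagen chains tested, 4 were higher and 2 lower in 4T1R1 (median 0.27), while 3 were lower and 4 not called in 4T1R2 (median -0.33), led by Col6a1 (-0.999), beside the same shares of all genes.

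Inside the cell, integrin tails bind activators and adaptors, of which 40 were tested. In 4T1R1 12 were higher and 14 lower (median log2FC -0.0032), and in 4T1R2 14 were higher and 18 lower (median -0.06), where 25.2% and 25.6% of all genes tested were higher and 27.5% and 26.9% lower. Parvb, which joins integrin-linked kinase to actin, was the most extreme: 1321 ± 69.4 normalized counts in untreated 4T1, 60.8 ± 6.52 in untreated 4T1R2 (log2FC -4.45, SE 0.102, adjusted P-value 4.07e-32) and only 2 raw counts in each untreated 4T1R1 library. From those 6 counts the ratio of 4T1 to 4T1R1 was 673, with an exact Poisson 95% interval of 309 to 1833 that covers counting error only. That interval would be wider if mates of a fragment were counted separately. Cav1 (caveolin) was higher in untreated 4T1R1 (log2FC 1.57), with a mean of 2738 normalized counts, 2.96 times that of untreated 4T1. In 4T1R2 it averaged 2297 with 17-DMAG, which raised it there by 0.15 on the log2 scale. A high Cav1 level was thus not particular to 4T1R1. With 17-DMAG, 14 of the 40 were higher and 11 lower in 4T1, 5 higher and 10 lower in 4T1R1, and 4 higher and 36 not called in 4T1R2, where 18.4% and 18.0%, 13.9% and 14.3%, and 6.17% and 4.35% of all genes were higher and lower. Fermt1 (kindlin-1), an integrin activator of epithelial cells, fell with treatment in 4T1 and 4T1R1 by 0.64 and 0.28 on the log2 scale.

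Of the 8 hemidesmosome and tetraspanin partners, 3 were higher and 1 lower in 4T1R1 (median log2FC 0.12), and 3 were higher and 3 lower in 4T1R2 (median 0.02), where 25.2% and 25.6% of all genes tested were higher and 27.5% and 26.9% lower. Cd9, a tetraspanin that associates with α3β1 and α6β1, was higher in both (0.27 and 0.75), and the hemidesmosomal linker Dst was lower in 4T1R2 (-0.39). With 17-DMAG the tetraspanin Cd82 fell in 4T1, 4T1R1 and 4T1R2, by 0.45, 0.49 and 0.32 on the log2 scale, and Plec (plectin), which links α6β4 to keratin filaments, rose in 4T1 (0.31, and 0.19 under total counts).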

How the data were processed

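RNA-seq libraries of total RNA depleted of ribosomal RNA were prepared by the authors with a stranded kit from 18 samples in 6 groups. Reads were aligned with STAR to mm10 (GRCm38) and counted per gene with featureCounts (Subread 1.6.2), and raw counts were deposited as whole numbers without normalization. Strand and multi-mapping settings of counting are not given in the sources used here. Of counts from 1 to 12, 65.6% to 70.8% were even, so mates of a fragment may have been counted separately.

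Groups came from the sample labels. Replicates 1 and 2 of 17-DMAG-treated 4T1 (chi-square per gene 1.10, against 2.04 to 2.22 in 17 other pairs) were averaged after the counts were seen. The resulting 17 samples were fitted together in edgeR 4.0.16 (R 4.3.3) with filterByExpr, TMM scaling, group means and the quasi-likelihood test, adjusted by Benjamini-Hochberg over 13507 genes at 0.05. Symbols, positions and exon lengths were matched to GENCODE on GRCm38. The code was tested on simulated counts, and figures were drawn with matplotlib 3.10.9.

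The members and lists were chosen with earlier results of these data known. The rule for naming list genes took, per list and comparison, up to 2 called genes of largest change whose groups did not overlap and whose higher group averaged 100 normalized counts or more. As alternatives, scaling was changed to RLE or total counts, the filter was dropped or set to 10 counts in every library, DESeq2 1.42.0 was used, the fit was limited to the groups compared, the averaged libraries were kept separate, the replicate number was added as a block, and Rn45s or single libraries were left out. Depth ran from 23354461 to 55094630 counts per library, and the interval of the Parvb ratio covers counting error only, while intervals of log2FC rest on the edgeR standard error.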

Additional observations from a re-analysis of the deposited data

Results flagged for a closer look

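The results below were singled out because the test of the difference itself found the response to 17-DMAG to differ between a resistant population and 4T1. For 4T1R2 minus 4T1 the differences in log2FC were 0.22 for Itga2, 0.15 for Itgav, 0.25 for Itgb4 and 0.26 for Itgb5. For 4T1R1 minus 4T1 they were -0.11 for Itga3, 0.13 for Itgav and -0.94 for Itgb6. The calls for Itgb4 and Itgb5 in 4T1R2 held under every alternative run, while each of the other 5 was lost without at least 1 of the libraries left out in turn. No group had the 4 samples that a check for a single outlying sample needs.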

How the results depend on the processing

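Over 1320 combinations of a member, a comparison and an alternative, 1231 kept direction and side of the threshold. All 10 calls in each comparison of a resistant population with 4T1 held under every alternative run. With scaling by total counts, which moved the median log2FC of all genes to -0.11 in 4T1 and to 0.15 in 4T1R1 minus 4T1, members higher with 17-DMAG in 4T1 went from 3 to 1, and those with a response higher and lower in 4T1R1 than in 4T1 went from 1 and 2 to 6 and 0. The higher count was 0 with no filter and 0 with only the groups compared, and the lower count was 1 with RLE scaling, a minimum of 10 counts, only the groups compared, the averaged pair kept separate, or the replicate block with that pair separate. Members lower with 17-DMAG in 4T1R2 went from 1 to 2 with total counts, a minimum of 10 counts, DESeq2 or only the groups compared, by the addition of Itga2. Leaving out single libraries gave 1 to 3 members higher in 4T1R2 than in 4T1R1, and 0 to 1 higher and 0 to 2 lower in the response of 4T1R1 minus 4T1. The cause of these changes was not tested.

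Same-numbered samples deviated with correlations of -0.0331 to 0.0257 over 9 pairs, 0 of which were over 0.1, and 2 of 9 correlated best with their own number. No pairing was detected by this check. It cannot exclude pairing, since the deviations are from means of 3 libraries and hold counting noise. The replicate block was run only with the averaged pair kept separate. Against the same fit without the block it changed 1 count, members lower with 17-DMAG in 4T1R1, from 6 to 5 (Itgb6, log2FC -0.52, adjusted P-value 0.0559 by edgeR).

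Directions turned for values that were small or had wide errors. With total counts the log2FC was -0.0173 for Itgb1 in 4T1 with 17-DMAG, -0.0144 for Itgb6 in 4T1R2 with 17-DMAG, 0.0373 for Itga3 in 4T1R1 minus 4T1, and 0.0248 for Itga3 and 0.0497 for Itga6 in 4T1R2 minus 4T1. With single libraries left out, 4T1R2 against 4T1R1 ran from -0.0582 to 0.000972 for Itga3, -0.0190 to 0.00507 for Itga6 and -0.194 to 0.122 for Itgb6. With 17-DMAG, Itgb6 ran from -0.0902 to 0.574 in 4T1 and from -0.0536 to 0.156 in 4T1R2, and Itga5 from -0.0874 to 0.00220 in 4T1R2. The response of 4T1R1 minus 4T1 ran from -0.0364 to 0.0538 for Itga2, -0.00987 to 0.0524 for Itga5, -0.00326 to 0.0355 for Itgb1 and -0.00430 to 0.0759 for Itgb4, and that of 4T1R2 minus 4T1 from -0.0200 to 0.0187 for Itgb1 and -0.543 to 0.125 for Itgb6. The scarcest members, Itgb6 and Itgb3, had the widest errors.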
